A study of Mus musculus with 72 samples.

Results

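The ventral hippocampus (VH) of male mice labelled C57BL/6NJ was compared 30 min after a cue alone with the same tissue taken directly from the home cage. The 12 libraries, 6 for the cue and 6 for the home cage, were chosen by the region, strain label and condition in their titles, out of 72 in the series. The whole series also covers the dorsal hippocampus (DH), mice labelled C57BL/6J and a condition in which shock was given with the cue, as in fear conditioning, with 6 libraries in each of its 12 groups. All mice of the series were male and none carried a named transgene. The labels give no age and do not describe the cue, and they do not say that each library came from a separate mouse, and p-values therefore describe the spread among libraries, which may be technical. The cue libraries carry the code numbers 38 and 40 and the home cage libraries 41 and 42, with 3 libraries to a number, so anything shared by a number cannot be told apart from the condition. No group was handled without a cue, so the cue cannot be told apart from moving and handling the mouse.

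Neurons that fire strongly switch on immediate early genes within minutes, without first making protein. Calcium and growth factor signals activate kinases, these act on factors already bound at the promoters, such as CREB and the serum response factor, and the first products are themselves transcription factors (Fos, Egr and Nr4a families) or act at synapses (Arc). A later wave, which needs those first products in part, includes Bdnf and other secreted proteins. The ventral hippocampus is known for its links with the amygdala, hypothalamus and prefrontal cortex and for its part in anxiety and fear.

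The labels were checked against marker genes. All 10 genes of a ventral list, among them Trhr and Grp, had higher mean levels in VH than in DH in both conditions under the label 6NJ, and 4 of 6 genes of a dorsal list were lower in VH in both; Gpr161 and Ccn3 were not. The strain label did not match known differences between the substrains. Nnt, which has lost exons in 6J mice, had a mean of 19.6 CPM (counts scaled to a common library size) in home cage VH labelled 6NJ against 37.2 CPM in VH labelled 6J, and Gabra2, which is expressed less in 6J mice, had means of 119 against 281 CPM. The libraries are therefore called "labelled 6NJ" here. Library totals of the 12 were 31164746 to 42204030 gene counts. Mitochondrial genes took 6.15% to 7.13% of the counts in the cue libraries and 6.43% to 9.44% in the home cage libraries. The home cage library 41A stood farthest from its group, with the highest mitochondrial share and a median correlation of 0.9943 with the other 5. Transthyretin (Ttr), the main product of the choroid plexus, was high in 1 cue library (38B, 1590 CPM) and 3 home cage libraries (42A, 42B and 42C, 592 to 1410 CPM) and was 8.97 to 43.0 CPM in the other 8.

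Of 19597 genes tested with edgeR's quasi-likelihood test, 2519 (12.9%) passed an adjusted p of 0.05, of which 1365 (6.97%) were higher and 1154 (5.89%) lower after the cue. Most of these differences were small. The median log2 fold change was 0.22 among the higher genes and -0.22 among the lower genes, and 75.6% and 78.9% of them were under 1.25-fold. At least 1.5-fold separated the groups for 135 higher and 92 lower genes, and 32 and 30 of these were at least 2-fold apart. The 6 cue libraries were all above the 6 home cage libraries for 426 genes (2.17% of those tested) and all below for 216 (1.1%). Every one of the 15 higher genes with the smallest p had cue libraries that did not overlap the home cage; the first 5 were Arc, Egr2, Fosb, Junb and Sik1.

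The promoters of 5 of the 15 higher genes with the smallest p are shown first, chosen because they hold the DNA motif TGACG. This motif is the core of the cAMP response element, the site at which CREB is known to bind. Each is the 250 bases before the gene's start in RefSeq (GRCm38.p6), read 5′ to 3′ on the gene's own strand, in lower case with every TGACG in capitals on either strand (CGTCA on the strand shown). The windows lie at chr12:85473640-85473889 on the plus strand for Fos, chr7:19310046-19310295 on the minus strand for Fosb, chr8:84978749-84978998 on the minus strand for Junb, chr15:101266596-101266845 on the plus strand for Nr4a1 and chr6:85513590-85513839 on the minus strand for Egr4.
Fos: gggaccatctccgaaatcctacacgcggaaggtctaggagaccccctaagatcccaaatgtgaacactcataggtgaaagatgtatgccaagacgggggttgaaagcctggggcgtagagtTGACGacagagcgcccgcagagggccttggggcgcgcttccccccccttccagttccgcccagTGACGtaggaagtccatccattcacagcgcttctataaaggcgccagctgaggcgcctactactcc
Fosb: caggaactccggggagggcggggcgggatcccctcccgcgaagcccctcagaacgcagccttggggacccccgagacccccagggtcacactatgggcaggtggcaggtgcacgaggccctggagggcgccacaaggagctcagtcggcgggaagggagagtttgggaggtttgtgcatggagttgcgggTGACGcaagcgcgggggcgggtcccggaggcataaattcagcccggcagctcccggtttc
Junb: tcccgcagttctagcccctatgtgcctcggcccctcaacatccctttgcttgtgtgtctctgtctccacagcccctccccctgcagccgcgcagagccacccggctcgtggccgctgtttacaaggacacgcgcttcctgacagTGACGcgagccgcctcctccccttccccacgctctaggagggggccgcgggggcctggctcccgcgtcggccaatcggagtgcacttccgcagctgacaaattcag
Nr4a1: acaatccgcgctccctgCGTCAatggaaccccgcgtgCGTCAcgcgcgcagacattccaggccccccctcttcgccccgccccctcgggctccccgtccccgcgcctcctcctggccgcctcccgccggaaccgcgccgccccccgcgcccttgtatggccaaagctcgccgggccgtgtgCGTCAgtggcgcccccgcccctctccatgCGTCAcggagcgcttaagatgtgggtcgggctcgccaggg
Egr4: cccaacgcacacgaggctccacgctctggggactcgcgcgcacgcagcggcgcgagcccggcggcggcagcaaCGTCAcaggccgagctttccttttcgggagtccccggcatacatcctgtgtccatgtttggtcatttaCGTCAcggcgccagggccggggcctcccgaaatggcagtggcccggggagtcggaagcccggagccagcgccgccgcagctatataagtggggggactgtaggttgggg
Nr4a1 held 4 copies, Fos and Egr4 held 2 each, and Fosb and Junb held 1 each. Of the other genes among the 15, Apold1, Egr2 and Homer1 held it in at least 1 window, Tiparp, Spty2d1 and Ddit4 held none, and no window was used for Arc, Sik1, Egr1 and 1700016P03Rik. Among the members of both lists of rapid genes described next that had a window, 23 of 35 (65.7%) held TGACG on at least 1 strand, against 28.3% of the 12823 tested genes with a window and 19.8% of all RefSeq promoters. A gene with several windows counts if any holds the motif. The share was 37% among the higher genes, 45.8% among those at least 1.5-fold higher, and 28.8% among the lower genes, close to that of all tested genes. TGACG was also in 8 of 14 genes (57.1%) of a list of heat shock genes. The full palindrome TGACGTCA, which contains TGACG on both strands, was in 5 of the 35 rapid genes (14.3%) and 2.82% of the tested genes. It was in 5.06% of the higher and 3.24% of the lower genes. The CArG box bound by the serum response factor was in 3 of the 35 rapid genes (8.57%) and 1.41% of the tested genes. Among the higher genes its share was 1.32%, and among the lower genes 2.24%. A match is a description of these letters and was not tested as a binding site. Only the 250 bases before each start were searched, so sites elsewhere are not counted.

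Among the gene lists, which were chosen with earlier results of these data known, rapid transcription factors had the largest median change. Of 26 listed, 25 were tested, 18 were higher, none was lower, and 17 of the 25 had cue libraries wholly above the home cage, with a median log2 fold change of 0.57 against -0.01 over all genes tested. Fosl1 had too few counts to test. Over all genes tested 6.97% were higher, 5.89% were lower and 2.17% had cue libraries wholly above the home cage. Egr2, a zinc finger factor known for its low level in resting neurons, was at 0.722 to 1.25 CPM (median 1.05) in the home cage and 6.56 to 8.25 CPM (median 7.72) after the cue. Its log2 fold change of 2.86 ± 0.145 (SE; adjusted p = 2.47e-17) was a 7.24-fold difference, and its lowest cue library was far above its highest home cage library. Fos, which forms the AP-1 factor with Jun proteins, was at 2.86 to 9.53 CPM (median 6.86) against 26.6 to 39.4 CPM (median 34.7), a difference of 2.42 ± 0.168 (adjusted p = 3.91e-12). Fosb, of the same family, was at 4.41 to 6.38 CPM (median 5.52) against 13.9 to 18.3 CPM (median 16.9), a difference of 1.62 ± 0.0883 (adjusted p = 1.7e-16). None of these groups overlapped.

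The AP-1 partners differed among themselves. Junb was at 27.9 to 36.8 CPM in the home cage and 56.7 to 71.1 CPM after the cue, a log2 fold change of 1.06 ± 0.0646 (adjusted p = 6.26e-15). Jun was at 90.7 to 107 against 92.8 to 126 CPM, with a log2 fold change of 0.12 ± 0.0689 that did not pass (adjusted p = 0.248), and Jund, known as the steadily expressed member, had -0.17 ± 0.0841 (adjusted p = 0.165). Fosl2 was higher by 0.49 (adjusted p = 0.000354), Maff by 1.10 and Atf3 by 0.83, the last 2 at a mean of about 1 CPM after the cue (1.1 and 1.09 CPM). The difference between Junb and its relatives was not tested directly.

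All 4 Egr genes rose, and Egr2, the lowest at rest per length, rose most. The home cage means were 0.303 RPKM, which divides CPM by exonic length, for Egr2, 6.9 for Egr4, 16.5 for Egr3 and 18.3 for Egr1, and the log2 fold changes were 2.86, 0.93, 0.41 and 0.93. Egr1 was at 66.5 to 97.5 CPM in the home cage and 126 to 174 CPM after the cue (adjusted p = 8.94e-09). Nab2, a corepressor that Egr proteins induce and bind, was higher by 0.22 ± 0.0598 (adjusted p = 0.0137). Among the orphan receptors of the Nr4a family, Nr4a1 was at 41.6 to 51.4 against 83.0 to 102 CPM (1.04 ± 0.067, adjusted p = 2.91e-14), Nr4a3 was higher by 0.47 (adjusted p = 1.18e-05), and Nr4a2 overlapped between groups at 47.0 to 72 against 63.3 to 98.2 CPM (0.32 ± 0.126, adjusted p = 0.0905). Npas4, a factor induced by calcium entry in neurons, had the largest p of the 18 called, at 10.3 to 16.6 against 15.2 to 25.1 CPM with overlapping groups (0.43 ± 0.144, adjusted p = 0.0457), and did not pass in 14 of 26 alternatives of normalization, filter, tool and libraries. Klf2 and Ier2 were higher by 0.85 and 0.69 without overlap.

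**Figure D1:**
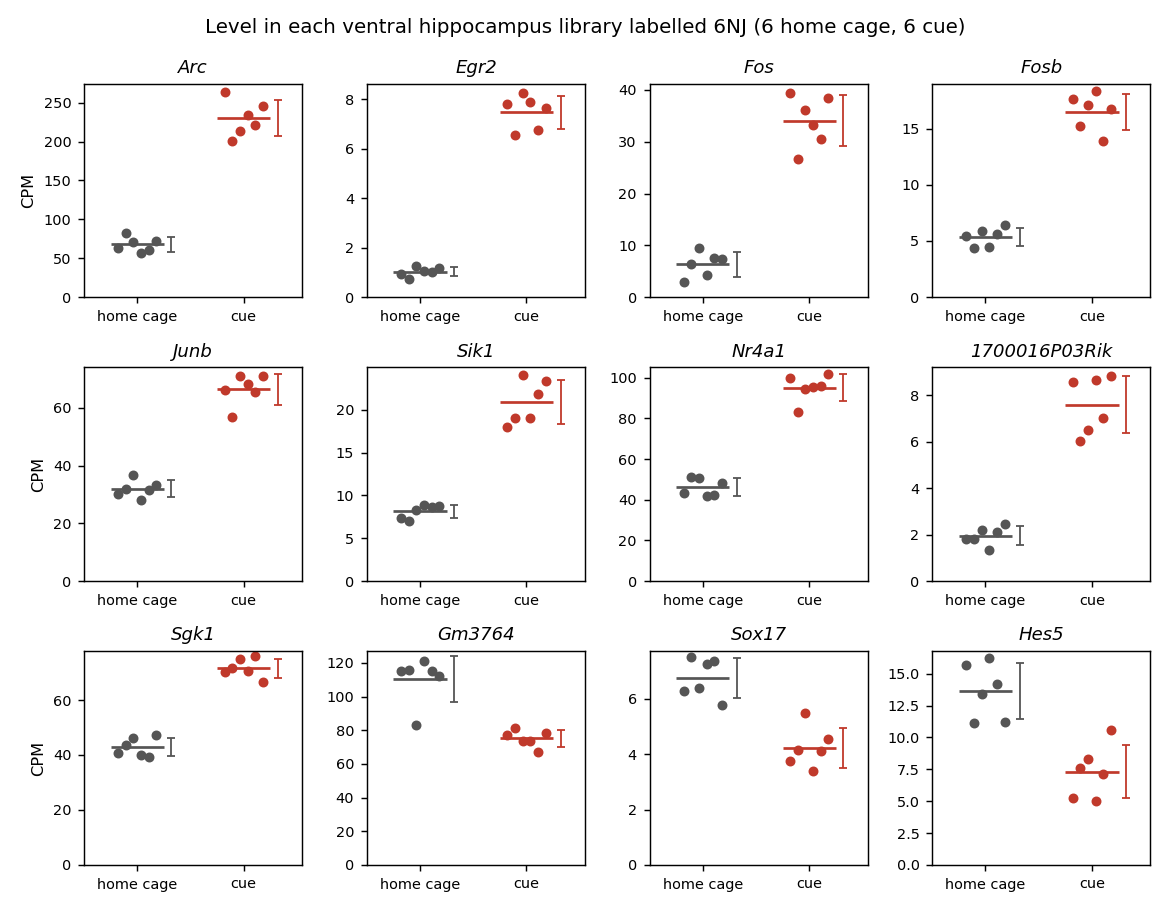
Level in CPM (vertical axis from 0) of 12 genes in each of the 6 home cage (grey) and 6 cue (red) libraries; horizontal lines are means and the bars beside them 1 SD. In Egr2 the home cage libraries lie at 0.722 to 1.25 CPM and the cue libraries at 6.56 to 8.25 CPM; in Gm3764, Sox17 and Hes5 every cue library lies below every home cage library.

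Rapid genes that do not encode transcription factors rose as well: 14 of 20 were higher and none lower, 8 without overlap, with a median log2 fold change of 0.35. Of all genes tested, 6.97% were higher, 5.89% were lower and 2.17% lay wholly above the home cage. Arc, which encodes a synaptic protein that governs the removal of AMPA receptors, had the smallest p of any gene. It was at 56.8 to 82.9 CPM (median 67.1) in the home cage and 201 to 264 CPM (median 227) after the cue, a 3.39-fold difference (1.76 ± 0.0825, adjusted p = 2.09e-17). Sik1, a kinase that restrains the CREB coactivators, was at 7.0 to 8.86 against 18.0 to 24.1 CPM (1.36 ± 0.0873, adjusted p = 2.29e-14). Ccn1, a secreted matrix protein, was higher by 1.18, Btg2, which slows cell division, by 0.83, Tiparp, an ADP-ribosyltransferase, by 0.80 and Gadd45b, which takes part in DNA demethylation, by 0.62. These 6 genes had no overlap between groups. Outside the lists, Apold1, an early gene of vessels and activated neurons, was at 3.02 to 4.39 against 8.59 to 12.8 CPM (1.42 ± 0.137, adjusted p = 3.34e-09), and Spty2d1, which encodes a histone chaperone, was higher by 0.53 (adjusted p = 7.22e-10).

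A noncoding gene was among those with the largest change, and it spans 2 microRNA hairpins. 1700016P03Rik (chr11:75172560-75177633, plus strand, a processed transcript in GENCODE vM21) was at 1.32 to 2.47 CPM in the home cage and 6.01 to 8.82 CPM after the cue, a 3.89-fold difference (1.96 ± 0.141, adjusted p = 5.57e-13). The hairpins of miR-212 (chr11:75173388-75173478) and miR-132 (chr11:75173682-75173747) lie within it, on the same strand and outside its exons. The mature 3p arms are shown because they share a seed, the bases 2 to 8 that select targets, which stand in capitals; the sequences are RefSeq's on GRCm38.p6.
miR-212-3p: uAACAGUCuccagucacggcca
miR-132-3p: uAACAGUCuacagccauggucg
miR-132 is known to be induced by CREB in neurons. The gene record of Mir212 itself, looked up after its values were seen, was at 0.0548 to 0.299 CPM in the home cage and 0.233 to 0.403 CPM after the cue, with overlapping groups (0.98 ± 0.32, adjusted p = 0.0384). These libraries were made from polyadenylated RNA and did not measure mature microRNAs.

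The lower gene with the smallest p also spans a microRNA. Gm3764 (chr3:88206813-88229959, plus strand, a lincRNA) was at 83.2 to 121 CPM (median 115) in the home cage and 66.8 to 81.4 CPM (median 75.6) after the cue, a difference of -0.55 ± 0.0816 (adjusted p = 3.52e-05). All cue libraries were below all home cage libraries, of which 41C was the lowest. It spans the hairpins of Mir3093 and, outside its exons, Mir9-1 (chr3:88215598-88215686), whose 5p arm, known from neural progenitors, has a seed of its own.
miR-9-5p: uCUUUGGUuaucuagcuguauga

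Genes of the later activity wave were higher by smaller amounts: 11 of 20, none lower, with a median of 0.28. Inhba, which encodes a subunit of activin, was higher by 0.67 (adjusted p = 0.0161) and Nptx2, a pentraxin that gathers AMPA receptors, by 0.49 (adjusted p = 0.00515). Bdnf, the neurotrophin, was at 32.0 to 43.3 CPM against 40.5 to 56.8 CPM, with overlapping groups (0.31 ± 0.0812, adjusted p = 0.011). Scg2 and Pcsk1, a granule protein and an enzyme that cuts neuropeptide precursors, were higher by 0.29 and 0.43. Crem, a cAMP-responsive factor, Per1 and Nfil3 were higher by 0.34, 0.44 and 0.48 without overlap. Of 16 genes of CREB and cAMP signalling, 5 were higher and none lower, Creb1 by 0.22 (adjusted p = 0.0021). For both lists, the shares over all genes tested were 6.97% higher and 5.89% lower. Sik1, Crem, Per1 and Errfi1 stand in several lists, so these counts are not independent.

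**Figure D2:**
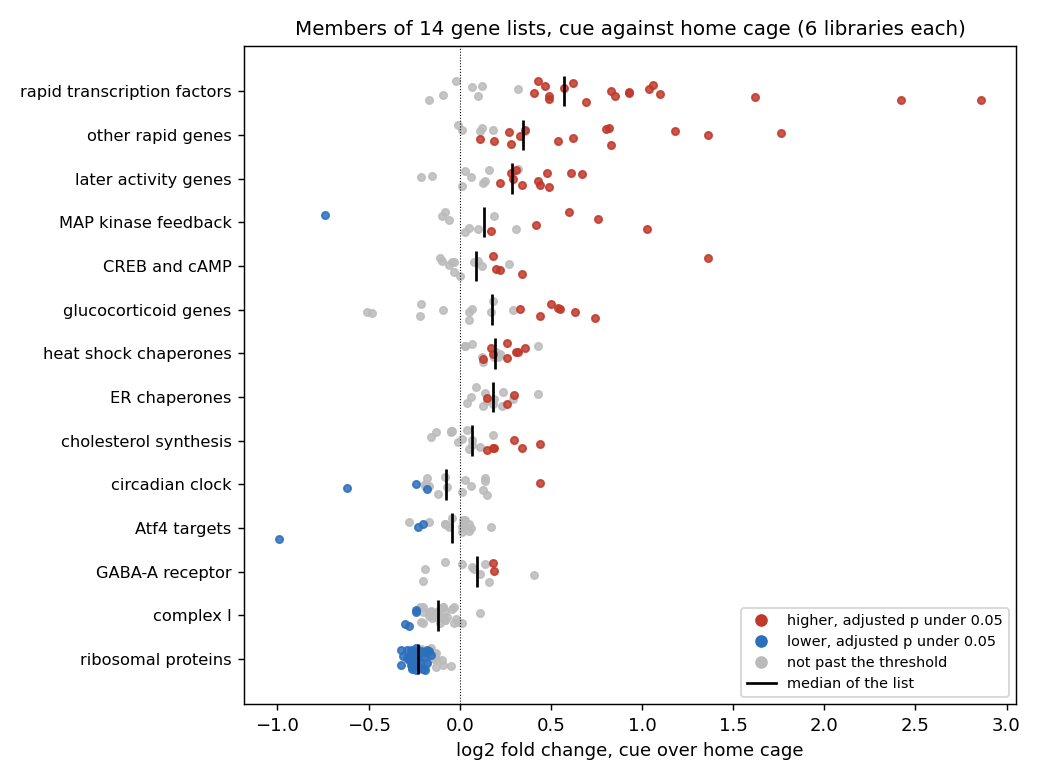
log2 fold change, cue over home cage, of the tested members of 14 gene lists; red and blue points passed an adjusted p of 0.05, grey points did not, and black lines are list medians (vertical position within a row is arbitrary). The median is 0.57 for rapid transcription factors and -0.23 for ribosomal proteins, and Dusp2 is the single blue point among the feedback genes.

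The transcript estimates of Homer1 are given by where each form ends. The gene as a whole, a scaffold of metabotropic glutamate receptors, was at 86.4 to 104 CPM against 128 to 156 CPM (0.61 ± 0.0559, adjusted p = 7.18e-10). Short Homer1 forms are known as the induced ones, which uncouple the scaffold. Over all transcripts 938 of 55754 (1.68%) passed. Homer1-205, which ends at chr13:93367134, was at 0 to 0.598 CPM in the home cage and 6.24 to 10.8 CPM after the cue (5.13 ± 0.546, adjusted p = 4.05e-07; with a home cage library at 0, this value depends on the prior count). Homer1-204, which ends at chr13:93360462, was at 13.9 to 22.9 against 39.5 to 53.4 CPM (1.22 ± 0.12, adjusted p = 9.33e-08). The long Homer1-202, ending at chr13:93405129, overlapped at 39.4 to 55.5 against 45.4 to 56.7 CPM and had a log2 fold change of 0.11 ± 0.0661 (adjusted p = 0.441). Homer1-206, which ends at the same base as Homer1-205, was at 2.49 to 3.9 against 4.19 to 6.48 CPM without overlap and did not pass (0.79 ± 0.24, adjusted p = 0.0768). Homer1-207, which ends between these and the long forms, had 0.34 ± 0.319 (adjusted p = 0.682). Homer1-203, another long form, had 0.36 ± 0.203 (adjusted p = 0.383). The difference between forms was not tested directly, and reads that fit several forms are shared out by the estimate.

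**Figure D3:**
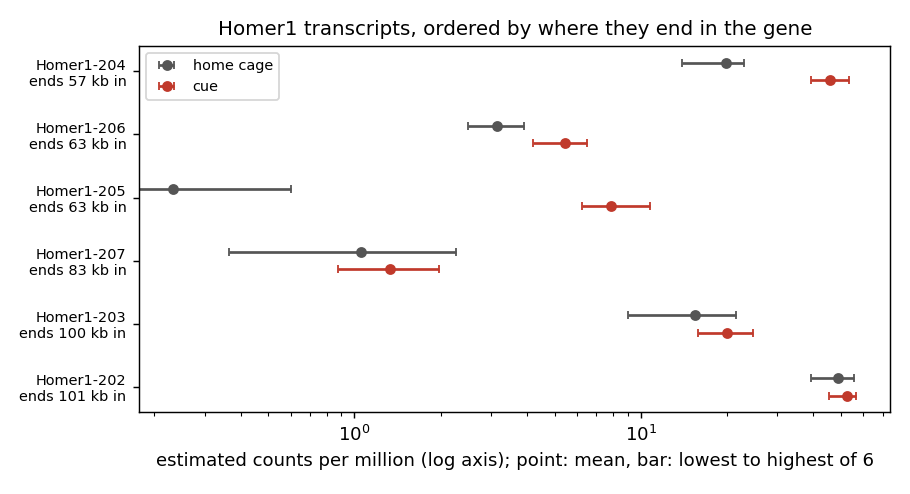
Estimated counts scaled to CPM (log axis) of the 6 tested Homer1 transcripts, in order of where each ends, counted in kilobases from the first start; points are means of 6 libraries and bars run from the lowest to the highest. Homer1-204 and Homer1-205 are separated between home cage (grey) and cue (red), Homer1-202 and Homer1-203 overlap, and the home cage bar of Homer1-205 reaches 0 and is cut at the edge.

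Transcripts of other induced genes were read in the same way. Nr4a1-201, which starts at the end of the promoter window printed above, was at 20.5 to 29.1 against 63.3 to 78.4 CPM (1.62 ± 0.11, adjusted p = 9.18e-12). Nr4a1-202, which starts upstream at chr15:101254269, was at 13.4 to 23.7 against 10.7 to 17.0 CPM (-0.33 ± 0.21, adjusted p = 0.458); the difference between the forms was not tested. Both tested Arc transcripts and the single tested Sik1 transcript were higher. None of 7 Bdnf and none of 15 Crem transcripts passed, though both genes did.

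Feedback genes of the MAP kinase pathway, which carries growth factor and calcium signals to the nucleus, were higher in 5 of 14 and lower in 1. Over all genes tested the shares were 6.97% higher and 5.89% lower, so 1 lower member of 14 is near the background. Dusp1 and Dusp5, phosphatases in the nucleus, and Dusp6, the ERK phosphatase of the cytoplasm, were higher by 1.03 (adjusted p = 1.43e-08), 0.60 and 0.76. Spry4, an inhibitor of growth factor signalling, was higher by 0.42. Dusp2, another nuclear phosphatase, was the exception, at 0.695 to 0.896 CPM in the home cage against 0.291 to 0.692 CPM after the cue (-0.74 ± 0.229, adjusted p = 0.0304). Its low counts make it imprecise, and it did not pass with an offset for GC content or when only the 12 libraries were fitted.

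Genes that respond to glucocorticoids, the stress hormones, were higher in 7 of 18 and lower in none. The share of higher genes over all genes tested was 6.97%. Sgk1, a kinase, was at 39.3 to 47.2 against 66.6 to 75.9 CPM (0.74 ± 0.0774, adjusted p = 2.24e-08). Ddit4, an inhibitor of mTOR signalling, was at 35.3 to 40.4 against 52.1 to 63.0 CPM (0.55 ± 0.0479, adjusted p = 1.46e-10), and Cdkn1a, Nfkbia and Pdk4 were higher by 0.63, 0.50 and 0.33. The remaining 2 of the 7, Per1 and Errfi1, belong to the activity lists as well. Fkbp5, a chaperone of the receptor and a widely used marker, was at 54.8 to 59.4 against 47.0 to 61.4 CPM (-0.09 ± 0.102, adjusted p = 0.6), and Tsc22d3 had 0.29 ± 0.101 (adjusted p = 0.0545). Among 18 clock genes, Per1 alone was higher and 3 were lower: Dbp at 61.0 to 77.9 against 32.6 to 60.6 CPM (-0.62 ± 0.143, adjusted p = 0.00528), Bhlhe41 by -0.24 and Nr1d1 by -0.18. By comparison, 5.89% of all genes tested were lower. Bhlhe41 and Nr1d1 each failed to pass in 13 of the 26 alternatives. When only the 12 libraries were fitted 1 clock gene was lower. None was lower without the libraries of number 38 or without those of number 42. The labels give no time of day, so it was not tested whether the groups were taken at the same hour.

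Chaperones were slightly higher. Of 18 heat shock genes 8 were higher and none lower, with a median of 0.19: Hsp90aa1 was at 331 to 405 against 422 to 479 CPM (0.32 ± 0.0636, adjusted p = 0.00154), and Hsph1, Dnaja1 and Dnajb1 by 0.31, 0.26 and 0.36. Hspa1a, the classic inducible member, overlapped at 3.72 to 5.69 against 4.03 to 6.59 CPM (0.21 ± 0.161, adjusted p = 0.416). The heat shock element GAANNTTC was in the promoter window of 7 of 14 listed genes (50%) and of 6.21% of tested genes. Among all higher genes its share was 7.29% and among all lower genes 5.35%, both near that of tested genes. Cirbp, induced by cold, was lower, at 63.2 to 70.8 against 44.6 to 59.9 CPM (-0.40 ± 0.0996, adjusted p = 0.00927), while Rbm3, the other cold-induced gene of the list, was at 40.9 to 47.2 against 35.2 to 51.3 CPM (0.00 ± 0.0824, adjusted p = 0.983). Body temperature is not in the labels. In the endoplasmic reticulum 3 of 15 chaperones were higher, Hsp90b1 by 0.30, where 6.97% of all genes tested were higher. Hspa5 was at 145 to 169 CPM in the home cage and 169 to 265 CPM after the cue (0.43 ± 0.155, adjusted p = 0.0631). Its groups met at 169 CPM to the digits given. Without the 3 libraries of number 38, 1 of the 18 heat shock genes and none of the 15 others passed, and the medians were 0.10 and 0.04.

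Cholesterol synthesis genes were higher in 6 of 19 and lower in none, with a median log2 fold change of 0.07. Idi1, an isomerase of the pathway, was at 5.45 to 6.79 against 6.8 to 8.05 CPM (0.30 ± 0.0757, adjusted p = 0.00959). With an offset for GC content 2 of the 19 passed. Of all genes tested in the main fit, 6.97% were higher and 5.89% lower. Of 19 gene models of Atf4 targets none was higher and 3 were lower, Trib3 most (-0.99 ± 0.265, adjusted p = 0.0134, 0.397 to 0.75 against 0.188 to 0.351 CPM) and Slc7a5, an amino acid transporter, by -0.20.

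Receptors and channels changed in few members and by little, near the background of 12.9%. Htr4, a serotonin receptor coupled to cAMP, was higher by 0.49 ± 0.118 (adjusted p = 0.00721), 1 of 12 serotonin receptors. Gabra2, a GABA-A receptor subunit, was higher by 0.19 ± 0.0607 (adjusted p = 0.0316). Among glutamate receptor genes, Grm5 was higher (0.21, adjusted p = 0.0125) and Grik5, a kainate receptor subunit, was lower (-0.23, adjusted p = 0.00253, 242 to 311 against 223 to 241 CPM). Of 29 potassium channel genes, Kcnh3 (-0.21) and Kcns1 (-0.32) were lower. None of 17 neuropeptide genes passed.

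Lower genes included the transcription factors Sox17, Sox18 and Hes5. Sox17, known from endothelium, was at 5.77 to 7.51 CPM in the home cage and 3.38 to 5.47 CPM after the cue (-0.67 ± 0.11, adjusted p = 0.000108), and Sox18, its relative in endothelium, was at 6.33 to 9.33 against 4.21 to 6.47 CPM (-0.64 ± 0.135, adjusted p = 0.00245). They were the 2 of 14 endothelial markers that passed, where 12.9% of all genes tested passed. The list's summed level was 363 to 406 CPM after the cue and 371 to 409 CPM in the home cage, its median log2 fold change was -0.02, and Cldn5, the tight junction protein, had -0.22 ± 0.137 (adjusted p = 0.29). In bulk tissue fewer cells of a type and less RNA per cell cannot be told apart. Hes5, an effector of Notch signalling in astrocytes and progenitors, was at 11.1 to 16.2 against 5.05 to 10.6 CPM (-0.89 ± 0.172, adjusted p = 0.00121), and none of 11 astrocyte markers passed. Acsf3, which activates malonate in mitochondria and had the smallest p among lower genes after Gm3764, was lower by 0.32 on the log2 scale (17.2 to 18.7 against 13.4 to 15.4 CPM, adjusted p = 4.22e-05). Hdgfl2, Ipo9, Fbf1, Nudt16, Pgls, Selenoo and Ppox, further genes with small p, were lower by 0.15 to 0.35 on the log2 scale.

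The large fold changes of 2 other genes each rested on 1 library. Trh, a releasing hormone, had -2.83 ± 0.833 (adjusted p = 0.0251), but the home cage library 42A held 11.7 CPM and the other 11 libraries at most 0.783 CPM. Without 42A its value was -0.35 (adjusted p = 0.776). The pseudogene Gm29216 had 2.12 ± 0.607 (adjusted p = 0.0217), with 109 CPM in the cue library 40B and at most 10.3 CPM in the others; without 40B its value was 0.07 (adjusted p = 0.912).

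Many of the small differences followed the base composition of the genes. The median exonic GC content was 43.2% in the 1365 higher genes, 56% in the 1154 lower genes and 49.4% in all genes tested. Of the genes with the lowest GC content, 17.1% to 43.6%, 18.9% were higher and 1.43% lower; of those with 55.4% to 80.9%, 1.36% were higher and 16.2% lower. Higher genes were also longer, with a median exonic length of 5726 bases against 2896 in lower genes. Among genes at least 1.5-fold apart the GC medians were 48.1% for higher and 48.6% for lower genes. Many of these had low counts, with median levels of 1.21 and 0.581 CPM against 12.7 CPM in all genes tested. Protein-coding genes made up 54.8% and 30.4% of them, against 78.2% of all genes tested. The slope of a library's log2 CPM on GC content, per 10 percentage points, was -0.066 to 0.029 (median -0.032) in the cue libraries and 0.001 to 0.172 (median 0.061) in the home cage libraries, highest in 41A. With an offset for GC content, added after these values were seen, 1025 genes passed (655 higher and 370 lower), of which 815 were among the 2519. The part of library composition in the small differences was not tested further.

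**Figure D4:**
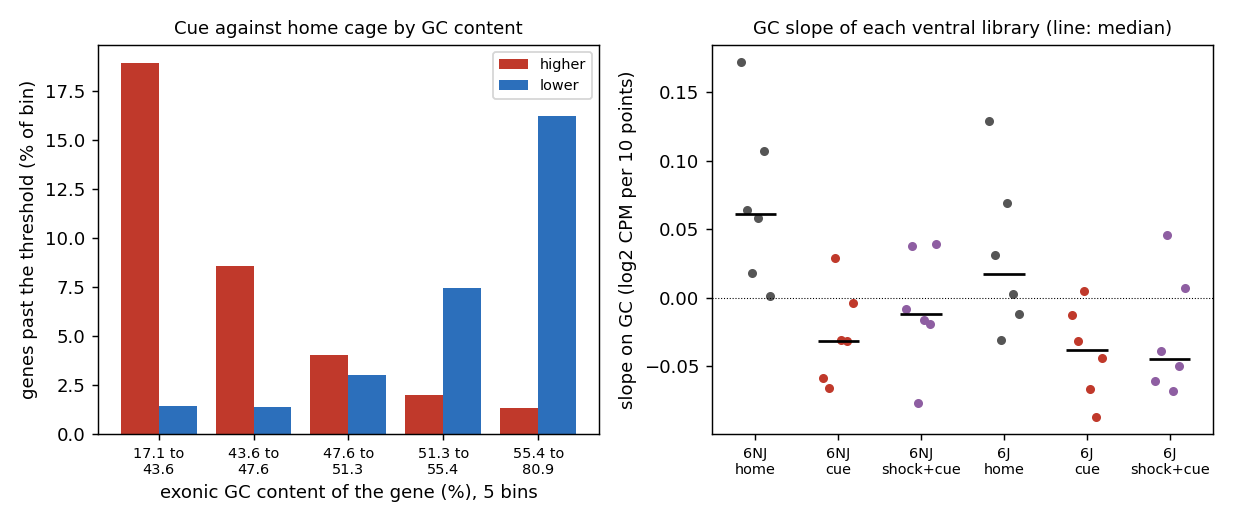
Left, share of genes in each of 5 bins of exonic GC content that were higher (red) or lower (blue) after the cue. Right, slope of log2 CPM on GC content in each ventral library by strain label and condition, with group medians as lines; the 6NJ home cage libraries lie at 0.001 to 0.172 and the 6NJ cue libraries at -0.066 to 0.029.

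Ribosomal protein genes and genes of the mitochondrial genome were lower by small amounts. Of 62 ribosomal protein genes 37 were lower and none higher, with a median of -0.23; Rps15 was at 207 to 358 against 194 to 233 CPM and Rpl13 at 98.4 to 160 against 85.1 to 102 CPM. The summed level was 7101 to 10426 CPM in the home cage libraries, with the maximum in 41A. It was 6604 to 7492 CPM in the cue libraries, and the groups overlapped. Without 41A none of the 62 passed and the median was -0.15, and none passed when only the 12 libraries were fitted. With an offset for GC content 7 passed and the median was -0.18. Of 13 protein genes of the mitochondrial genome 4 were lower, mt-Nd5, mt-Nd1 and mt-Co1 by -0.36, -0.34 and -0.29, and 4 of 36 complex I genes of the nucleus were lower, Ndufa2 by -0.30. The 13 had a median of -0.30, and 5.89% of all genes tested were lower. With the offset for GC content 5 of the 13 were lower, with a median of -0.42, and with the offset for GC content and exonic length 6 were. Without 41A none of these 13 or 36 passed.

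Most cell type lists had no member past the threshold. None of the listed markers passed for dentate granule cells, interneurons, oligodendrocytes and their precursors, astrocytes, mural cells, meningeal fibroblasts, ependyma, choroid plexus and blood. Man1a, 1 of 8 CA1 markers, was higher by 0.31 (adjusted p = 0.0362). Elavl2, 1 of 12 markers of CA2 and CA3, was higher by 0.20 (adjusted p = 0.0117). As 12.9% of all genes tested passed, 1 call in lists of this size is near the background. Man1a did not pass in 15 of the 26 alternatives and Elavl2 in 7. The 12 microglia markers had a median log2 fold change of 0.26 and a summed level of 344 to 557 CPM after the cue against 276 to 405 CPM in the home cage; P2ry12 had 0.50 ± 0.173 (adjusted p = 0.0551). Its part in other results was not tested. The choroid plexus list summed to 156 to 2464 CPM after the cue and 150 to 1802 CPM in the home cage, and with Ttr as a covariate 2005 genes passed.

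To see which genes held in every alternative, the calls were intersected over the 26 alternatives. Of the 2519, 176 higher and 17 lower genes passed in all of them. The higher ones included Arc, Egr2, Fos, Fosb, Junb, Sik1, Nr4a1, Nr4a3, Egr1, Egr3, Egr4, 1700016P03Rik, Apold1, Dusp1, Dusp6, Sgk1, Ddit4, Homer1, Per1 and Crem. The lower ones included Gm3764, Sox17, Hes5, Acsf3, Hdgfl2, Ipo9, Fbf1 and Selenoo. No member of the lists of ribosomal proteins, the mitochondrial genome, complex I or GABA-A receptors was among the 17 or the 176.

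The response was compared with that of VH labelled 6J, which shares no library with it. No gene differed between the responses: of 19597 genes none passed with edgeR (smallest adjusted p = 1, 539 at an unadjusted p under 0.05) or with DESeq2. In VH labelled 6J itself 2518 genes (12.8%) passed, 1524 higher (7.78%) and 994 lower (5.07%). Of the 1365 genes higher here, 795 were also higher there, which is 58.2% of these and 52.2% of those. Of the lower genes 443 were shared, 38.4% and 44.6%, and none passed in opposite directions. The GC slope in VH labelled 6J also had a lower median after the cue (-0.038) than in the home cage (0.017). Its part in the shared calls was not tested. Arc had 1.76 here and 1.62 there, a difference of 0.14 ± 0.114, and Nr4a1 1.04 and 0.78, a difference of 0.26 ± 0.094. Bdnf had 0.31 and 0.07, a difference of 0.24 ± 0.116. None of these passed (adjusted p = 1), which does not show that the responses were alike.

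The response was also set beside that of DH labelled 6NJ, whose values come from a fit of all 72 libraries, so its count of genes is not compared with the VH count. In DH 541 of 20255 genes (2.67%) passed, 388 higher (1.92%) and 153 lower (0.755%). Of those, 333 and 100 were also called in the same direction in VH, which is 85.8% and 65.4% of the DH calls and 24.4% and 8.67% of the VH calls, and none in the opposite direction. DH and VH libraries carry the same codes, and a shared code may mean the same mouse. No gene passed for the response in VH minus that in DH (edgeR, smallest adjusted p = 0.58, 757 at an unadjusted p under 0.05; DESeq2 0). Egr2 had 2.86 in VH and 3.05 in DH, Fos 2.42 and 2.17, Sox17 -0.67 and -0.63, Sox18 -0.64 and -0.74, and Hes5 -0.89 and -0.79. Acsf3 (-0.32 and -0.02) and Nptx2 (0.49 and 0.05) were farther apart, with differences of -0.30 ± 0.0885 and 0.44 ± 0.149 that did not pass (adjusted p = 0.998).

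**Figure D5:**
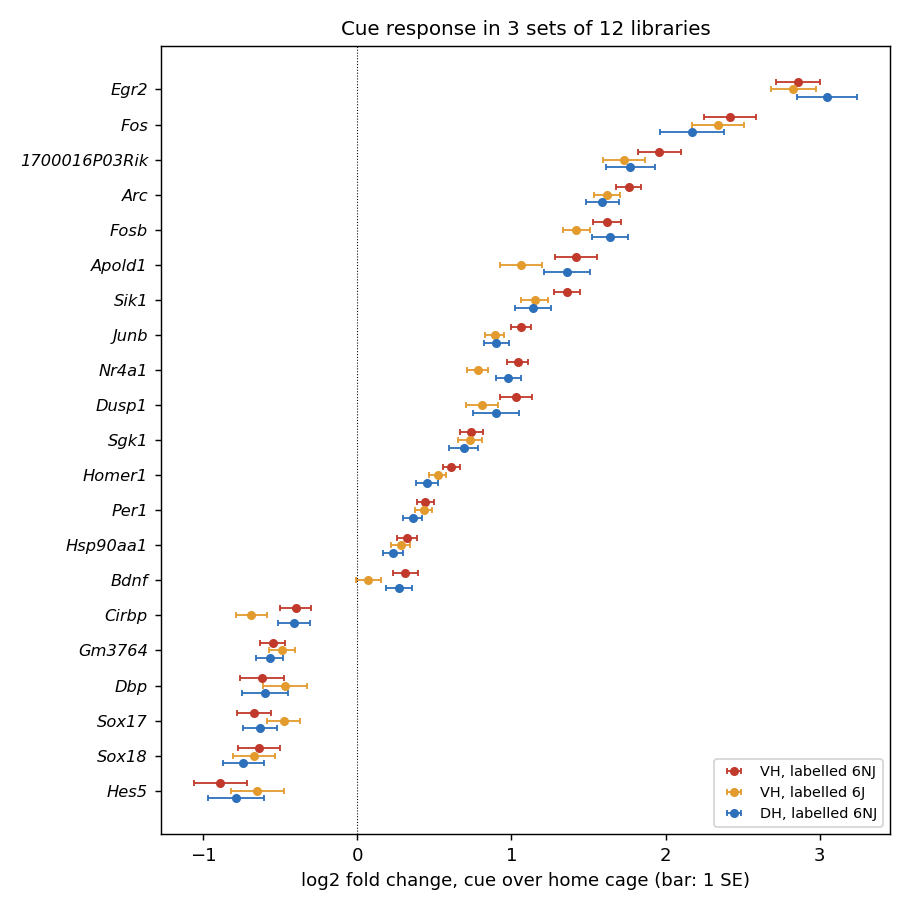
log2 fold change, cue over home cage, of 21 genes with 1 SE in VH labelled 6NJ (red), VH labelled 6J (orange) and DH labelled 6NJ (blue), from 6 against 6 libraries each. Egr2 lies at 2.86, 2.83 and 3.05 and Hes5 at -0.89, -0.65 and -0.79; Bdnf in VH labelled 6J, at 0.07, lies nearest to 0.

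Shock given with the cue was compared with the cue alone at 30 min. No gene passed between the shock and cue group and the cue group of VH labelled 6NJ (edgeR, smallest adjusted p = 0.591, 1218 at an unadjusted p under 0.05; DESeq2 0). Mean levels after shock and cue were 201 CPM for Arc, against 230 CPM after the cue and 67.8 CPM in the home cage, 31.4 CPM for Fos (34.1 and 6.33 CPM) and 41.7 CPM for Bdnf (49.1 and 39.5 CPM). The difference for Bdnf was -0.24 ± 0.0808 (adjusted p = 0.704).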

How the data were processed

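Bulk mRNA was measured in 72 libraries of 12 groups, of which the 12 of ventral hippocampus labelled 6NJ, cue or home cage, are described. Per the labels' protocols, libraries were stranded and read as single ends of 75 bp. The authors deposited whole-number gene counts, per the file headers in the layout of featureCounts, and estimated counts of 119414 transcripts in the layout of kallisto; HISAT2, FastQC and DESeq2 are also named, with GRCm38, in the submitters' processing notes. The sources used here give no versions, strand setting or filters. Groups and code numbers came from the labels.

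Tests used edgeR 4.0.16 (R 4.3.3): TMM factors, filterByExpr, robust quasi-likelihood fits and F-tests, and Benjamini-Hochberg adjustment over all genes tested at a threshold of 0.05. The fit held all 36 VH libraries with 1 mean per group, or all 72 for the comparison of regions; estimated counts were rounded first. Adjusted p-values are edgeR's where no other tool is named, and ± marks the SE of a log2 fold change. Errors of counting alone are small at these depths, 31164746 to 42204030 counts a library. No 2 libraries of a group agreed within sampling noise: the lowest chi-square per degree of freedom of 30 pairs was 7.88. Scripts were tested on simulated data. Symbols and coordinates came from GENCODE vM21, promoter windows and microRNAs from RefSeq on GRCm38.p6; 11 of the 15 higher genes with the smallest p matched a window. Motifs were searched on both strands.

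The gene lists, members and tests were chosen with earlier results of these data known. Named genes were the 15 higher and 15 lower with the smallest p, the 8 of each with the largest fold at a mean of at least 1 CPM, and list members. Some items are not reported here. A symbol with several gene models counts once for each. Alternatives were RLE size factors, other filters, DESeq2 1.42.0, fitting only the groups compared, limma-voom (limma 3.58.1) with a random effect of code number, a Ttr covariate, a threshold of 0.01, leaving out libraries or code numbers and, added after seeing the data, offsets for GC content and for GC content with exonic length.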

Additional observations from a re-analysis of the deposited data

Results flagged for a closer look

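In 210 groups of 6 values, for the genes named and for library measures, the farthest value was set against the range of its group, and 9 exceeded Dixon's 95% critical ratio; chance alone marks about 1 in 20 groups. Trh was at 11.7 CPM in the home cage library 42A against 0.122 to 0.783 CPM in the other 5, and Gm29216 at 109 CPM in the cue library 40B against 3.62 to 10.3 CPM. Home cage library 41C was low for Gm3764 (83.2 CPM, the others 112 to 121) and high for Nfkbia (17.2 CPM, the others 13.7 to 14.5). Home cage library 42C was low for Cirbp (63.2 CPM, the others 68.1 to 70.8) and for Cited4 (1.13 CPM, the others 1.63 to 1.84). Home cage library 42A was low for Hspa5 (145 CPM, the others 162 to 169). Among cue libraries, 38B was low for Egr4 (24.2 CPM, the others 28.3 to 29.5), and 40C was high for Nr4a2 (98.2 CPM, the others 63.3 to 76.0).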

How the results depend on the processing

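The count of 2519 genes moved with the number and choice of libraries. It was 1484 with no low-count filter, 893 when only the 12 libraries were fitted, 752 at a threshold of 0.01, 1025 with an offset for GC content and 1073 with an offset for GC content and exonic length. Leaving out 1 library gave 1075 to 3663 genes, with 1075 without 41A, 1250 without 38B, 1336 without 42B and 1424 without 38A. Leaving out a code number gave 328 (38), 745 (41), 1187 (42) and 1634 (40). It was 2486 with RLE, 2759 at a mean of at least 1 CPM, 3018 with DESeq2, 2922 with limma-voom and 2005 with the Ttr covariate. The 938 transcripts became 494 with no filter, 69 with only the groups compared and 2663 with DESeq2. Of 102 named genes, 45 kept their direction and their side of the threshold under every alternative run; of 2645 values 365 fell short of the threshold, 20 newly passed and 14 changed sign. These 14 belonged to Gm29216 (-0.28 without number 40), Jund (0.00 and 0.05 with the GC offsets) and Rbm3, whose main value is 0.00. Rbm3 was -0.01 with limma-voom, with the Ttr covariate and without 38B, -0.02 without 40A and without 42B, -0.04 without 40C, -0.00 without 41A, -0.08 without number 40, -0.03 without number 42, and -0.09 and -0.10 with the GC offsets, while it kept its sign at 0.06 without 38C. No cause was tested beyond the fewer libraries or genes of each fit.

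The comparisons of responses between strain labels and regions, and of shock and cue with the cue, gave 0 genes under every alternative run. With the code, which links DH to VH libraries, as a replicate block, the region comparison gave 0 genes, with 1240 at an unadjusted p under 0.05. Deviations from the group means, over 10507 genes, were correlated between the DH and the VH library of each code. The correlation was over 0.1 in 6 of 12 codes (from -0.268 to 0.445). In 3 codes the VH library correlated best with the DH library of its own code. These values do not settle whether a code pairs libraries, and the main fit did not pair them. Depth limited the genes near or under 1 CPM: the SE of the log2 fold change was 0.229 for Dusp2 and 0.265 for Trib3, against 0.0825 for Arc.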

Other observations

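Activin signalling, which acts at synapses and through Smad proteins, had called members in both directions. Over all genes tested 6.97% were higher and 5.89% lower. Of 14 genes, Inhba (0.67, adjusted p = 0.0161) and the receptor Acvr1c (0.23 ± 0.0714, adjusted p = 0.0336) were higher, and Inha, which encodes the subunit of inhibin, the antagonist of activin (-0.26 ± 0.0892, adjusted p = 0.0469), and the signal carrier Smad3 (-0.18 ± 0.058, adjusted p = 0.0336) were lower. All 4 overlapped between groups, Smad3 at 62.8 to 78.4 CPM in the home cage and 56.1 to 70.6 CPM after the cue. The calls were not stable: of 26 alternatives, Inhba did not pass in 8, Acvr1c and Smad3 in 15 each and Inha in 17. When only the 12 libraries were fitted none of the 14 passed, and with either GC offset 3 were higher and none lower.

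Inflammation lists were at or below the background of 12.9% of all genes tested. Of 12 interferon-induced genes 1 was lower, Ifit3, at 3.72 to 5.87 against 2.82 to 3.95 CPM (-0.43 ± 0.147, adjusted p = 0.0458), and it did not pass in 19 of 26 alternatives, among them the fit of the 12 libraries alone and both GC offsets. None of the 12 tested acute-phase genes and none of 20 nucleolar genes passed.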
